A study of Mus musculus with 9 samples.

Results

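Ribosome biogenesis factors are the proteins that make, fold, cut and assemble ribosomal RNA and its proteins into new ribosomes. They are followed here across wild type marrow and marrow of mice with a leukemia that carried an ERG transgene. Members were the genes whose only symbol in the platform's annotation begins with Nop, Rrp, Utp or Nol followed by a digit, together with 18 named genes. This gave 52 of the 19938 genes measured, 35 by the symbol pattern and 17 by name. Npm3, also named, and Utp14b, whose only probe set is shared with Acsl3, were not analysed here as members. Of the 52, 3 (Nol3, Nol4 and Nol4l) carry the symbol but are not known as biogenesis factors, and they are kept apart below. A probe set is a group of probes that read 1 transcript region. A gene with several was read through its brightest set on average.

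Ribosomes are built in the nucleolus. RNA polymerase I copies the ribosomal DNA into a long precursor RNA. Small nucleolar ribonucleoproteins (snoRNPs) modify that RNA: box C/D particles add methyl groups to ribose, and box H/ACA particles turn uridine into pseudouridine. The small-subunit processome, a large assembly that holds the U3 snoRNA, then folds and cuts the part that becomes the small subunit, while other factors mature the large subunit. MYC is known to drive many of these genes, and growing blood progenitors need large numbers of ribosomes.

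The RNA was measured on 9 arrays, 3 per group, all from C57BL6 mice. Wild type whole marrow came from 3 mice, 1 per array. Wild type lineage-negative marrow, from which mature blood cells had been removed with a depletion kit, came from 9 mice pooled by 3, so that its spread is between pools. Leukemia marrow was unsorted marrow of 3 transgenic ERG mice taken once they showed signs of disease, numbered in accession order, and the titles of leukemias 1 and 2 differ by a final digit only. All marrow came from the femur. The labels do not give the promoter or species of the transgene, nor the age or sex of the mice. Values are log2 intensities, for which a difference of 1 is a doubling.

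Array medians lay between 32.3 and 34.4 intensity units. The probe set of mouse Erg read 7.25, 7.60 and 7.01 (log2) in whole marrow, 7.01, 6.55 and 6.84 in lineage-negative marrow and 6.60, 6.19 and 6.32 in the leukemias. Leukemia minus whole marrow was -0.91 ± 0.18 (SE, limma adjusted p = 0.00739). Whether it reads the transgene is not known, so it does not check the labels.

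Cell markers differed between the groups. Summed intensity of 12 mature neutrophil markers was 43108 to 50103 in whole marrow, 780 to 2534 in lineage-negative marrow and 16994 to 26342 in the leukemias. For 9 mitosis markers it was 5474 to 6153, 6618 to 7369 and 7485 to 7605, and for 9 erythroid markers 1365 to 4090, 5024 to 7033 and 4853 to 8786. The 11 B cell markers summed to 1350 to 5799, 412 to 601 and 425 to 611, with 8 and 7 of them below the array median in the lineage-negative and leukemia groups. The 8 T and NK cell markers summed to 551 to 726, 255 to 369 and 205 to 296, and the 8 monocyte markers to 2870 to 4536, 894 to 1742 and 2022 to 4276. The 8 stem and progenitor markers summed to 751 to 918, 1986 to 3042 and 1061 to 1935. Gata2 alone made the leukemia sum exceed that of whole marrow: the other 7 summed to 656 to 777, 1479 to 2417 and 440 to 593. By limma, 1 of the 8 was higher and 3 lower in leukemia than in whole marrow. In the same comparison 7 of 12 neutrophil and 11 of 11 B cell markers were lower. So were 6 of 8 T and NK cell and 1 of 8 monocyte markers. Of the erythroid and mitosis markers, 6 of 9 were higher in each list. Over all genes 14.6% passed upward and 9.93% downward. Of the T and NK cell markers, 4 were below the array median in lineage-negative marrow and 5 in the leukemias. Hlf and Sox4 were below the array median in the leukemias, and Procr was below it in all 3 groups. The part of these cells in the results below was not tested. In whole tissue, fewer cells of a type and less RNA per cell cannot be told apart.

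**Figure D1:**
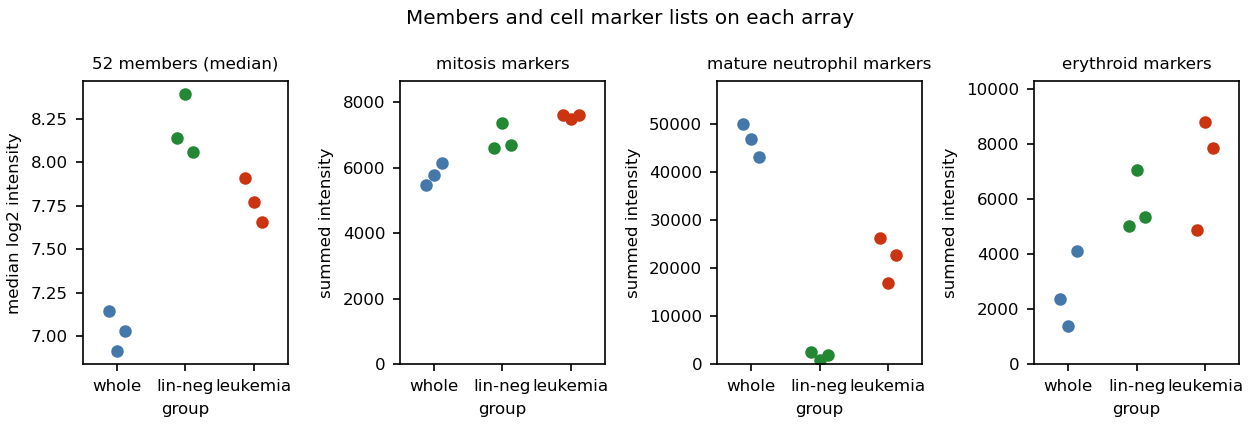
Each point is 1 array. The first panel plots the median log2 intensity of the 52 members and the others plot the summed intensity of the mitosis, mature neutrophil and erythroid marker lists, by group. The member medians of the leukemias, 7.66 to 7.91, lay above the whole marrow arrays and below the lineage-negative pools.

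Most biogenesis factors were higher in leukemic marrow than in wild type whole marrow. By limma, 43 of 52 passed an adjusted p of 0.05 upward and 0 downward, while 14.6% of all genes passed upward, 9.93% downward and 24.5% in either direction. At an unadjusted p under 0.05 the counts were 45 upward and 0 downward, against 19.3% and 15.6% of all genes. The median difference over the 52 was 0.748 (quartiles 0.574 and 0.977), against -0.022 over all genes. All 3 leukemia arrays lay above all 3 whole marrow arrays in 44 of 52, against 19.4% of all genes. The 9 that did not pass were Polr1a, Nop10, Utp23, Utp3, Rrp36, Nop53, Nol12, Nol3 and Nol4. Centring each array on its 75th percentile gave 42 members higher, and cyclic loess gave 42. The same scalings changed the split of all calls from 59.4% upward to 47.7% and 47.2%.

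Against lineage-negative marrow, the leukemias had the lower level of most factors. The difference was negative in 49 of 52, against 47.9% of all genes, with a median of -0.345 against 0.007. By limma, 14 passed the threshold downward and 0 upward, while 5.73% of all genes passed downward, 2.95% upward and 8.69% in either direction. At an unadjusted p under 0.05 the counts were 32 downward and 1 upward, against 14.3% and 8.33% of all genes. All 3 leukemia arrays lay below all 3 pools in 33 of 52, against 16.3% of all genes. The 14 were Dkc1, Nolc1, the small-subunit factors Nol6, Nop14, Utp11, Utp15, Utp20 and Utp25, and the large-subunit factors Nop16, Nop2, Rrp15, Rrp1b, Rrs1 and Wdr12. This count rested on few arrays. It was 5 without lineage-negative pool 1 or 2, 3 without leukemia 3, 7 without leukemia 2 and 9 without whole marrow 1. Downward calls over all genes also fell, from 1143 to 490 without pool 1, 720 without pool 2 and 607 without leukemia 3. They numbered 808 without leukemia 2, 834 without whole marrow 1, 690 without pool 3 and 996 without whole marrow 3. These all-gene counts also belong beside the counts by role below that leave out the same arrays. Utp25 and Wdr12 passed in every alternative run. Utp11 lost the call in 13 of these runs, Dkc1 in 11, Rrp15 in 10, Rrs1 in 9, Nol6 in 8 and Nop16 in 7. The rest of the 14 lost it in 1 to 6. Dkc1, Nol6 and Utp11 lost it under 75th percentile centring and under cyclic loess, and Rrp15 under cyclic loess. Nol10 and Polr1a gained a call under 75th percentile centring. In some run or other, 7 members gained a call, among them Nol4l upward. The upward share of all calls was 34.0%, and 44.0% and 44.9% under the 2 scalings.

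Over the members, the median difference between the wild type groups exceeded that of the leukemias from either. In lineage-negative marrow 48 of 52 members were higher than in whole marrow by limma and 0 were lower, at the adjusted and the unadjusted threshold alike. Of all genes, 21.7% passed upward and 34.7% in either direction, and 2587 of 19938 passed downward. At the unadjusted threshold 4976 of the 19938 genes were higher and 17.9% were lower. The median difference was 1.136 over the members and -0.035 over all genes. All 3 pools lay above all whole marrow arrays in 48 of 52, against 26.6% of all genes, and below them in 0 of 52, against 23.4%. Centring on the 75th percentile shifted the median of all genes by -0.124 here and gave 47 members higher. These comparisons share arrays, so their results are not independent of each other.

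**Figure D2:**
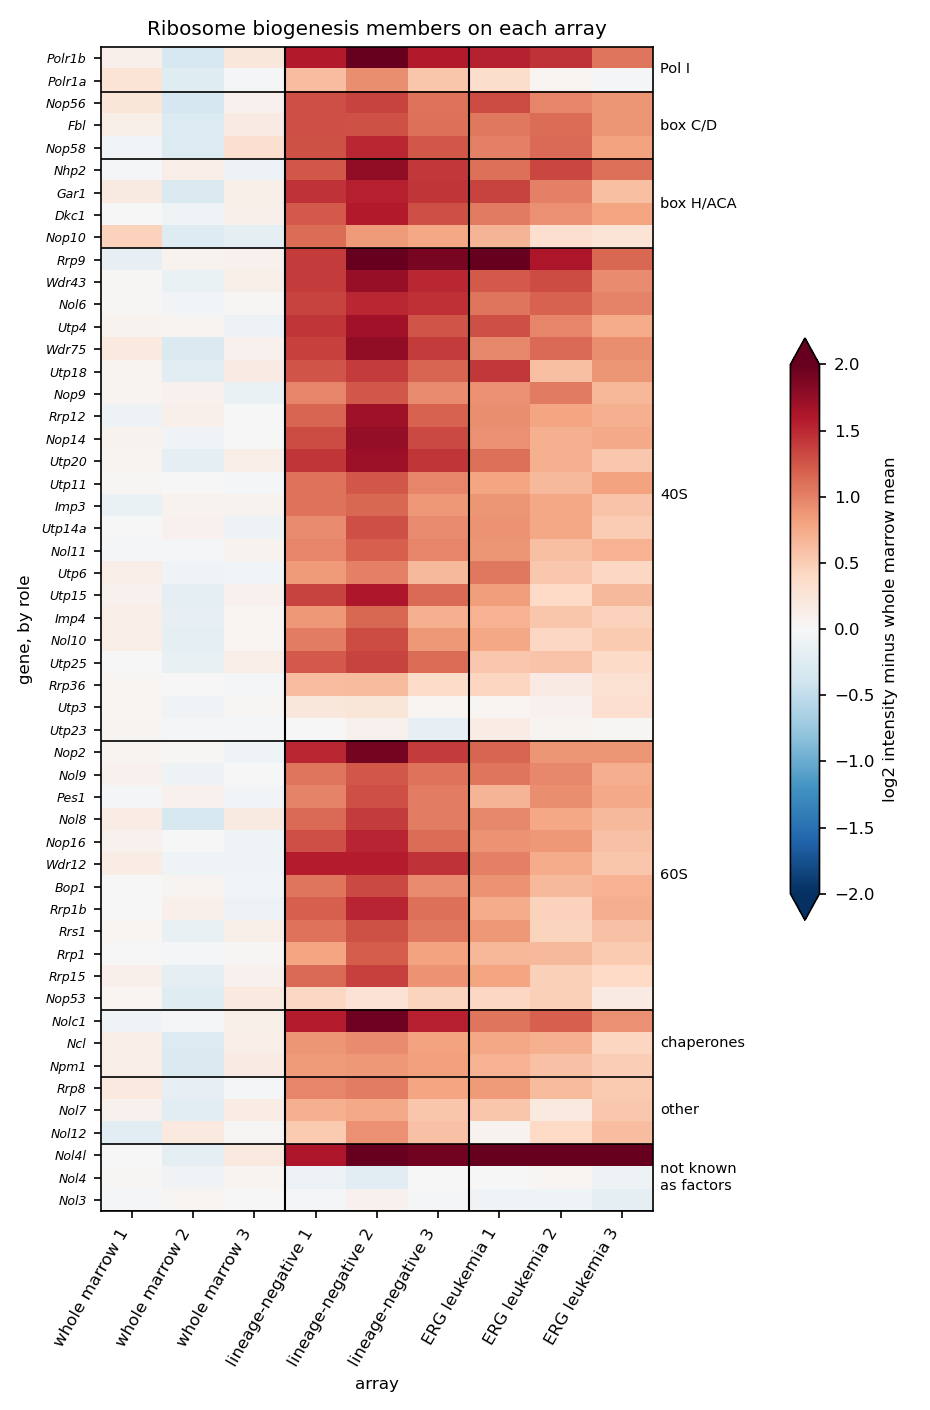
Heat map of the 52 members (rows, grouped by role) on the 9 arrays (columns), coloured by log2 intensity minus the gene's mean in whole marrow. Colours stop at 2 in either direction. Most rows are palest in whole marrow, strongest in the lineage-negative pools and in between in the leukemias.

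In 30 of 52 members all 3 leukemia arrays lay above every whole marrow array and below every lineage-negative pool, against 5.89% of all genes. The position of the leukemia mean on the way from the whole marrow mean (0%) to the lineage-negative mean (100%) was computed on the log2 scale for the 48 members higher in the pools. Its median was 67.0% (quartiles 55.5% and 74.7%) and its range 18.1% to 151.8%. The 4328 genes that were higher in lineage-negative marrow had a median of 64.1% (quartiles 41.6% and 83.6%), so the members' typical position was close to that of such genes in general. Both sets were picked for high values in the pools, and the same arrays set the ends of the scale. Such picking can by itself favour an in-between position, and its part was not tested. Polr1a at 18.1%, Utp25 at 40.1%, Utp15 at 46.2%, Nop10 at 47.0% and Rrp15 at 48.8% lay nearer to whole marrow. By role the median was 83.6% for the 3 box C/D proteins, 68.1% for 20 small-subunit factors, 66.6% for the 4 box H/ACA proteins and 62.9% for the 12 large-subunit factors. The differences between roles were not tested.

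**Figure D3:**
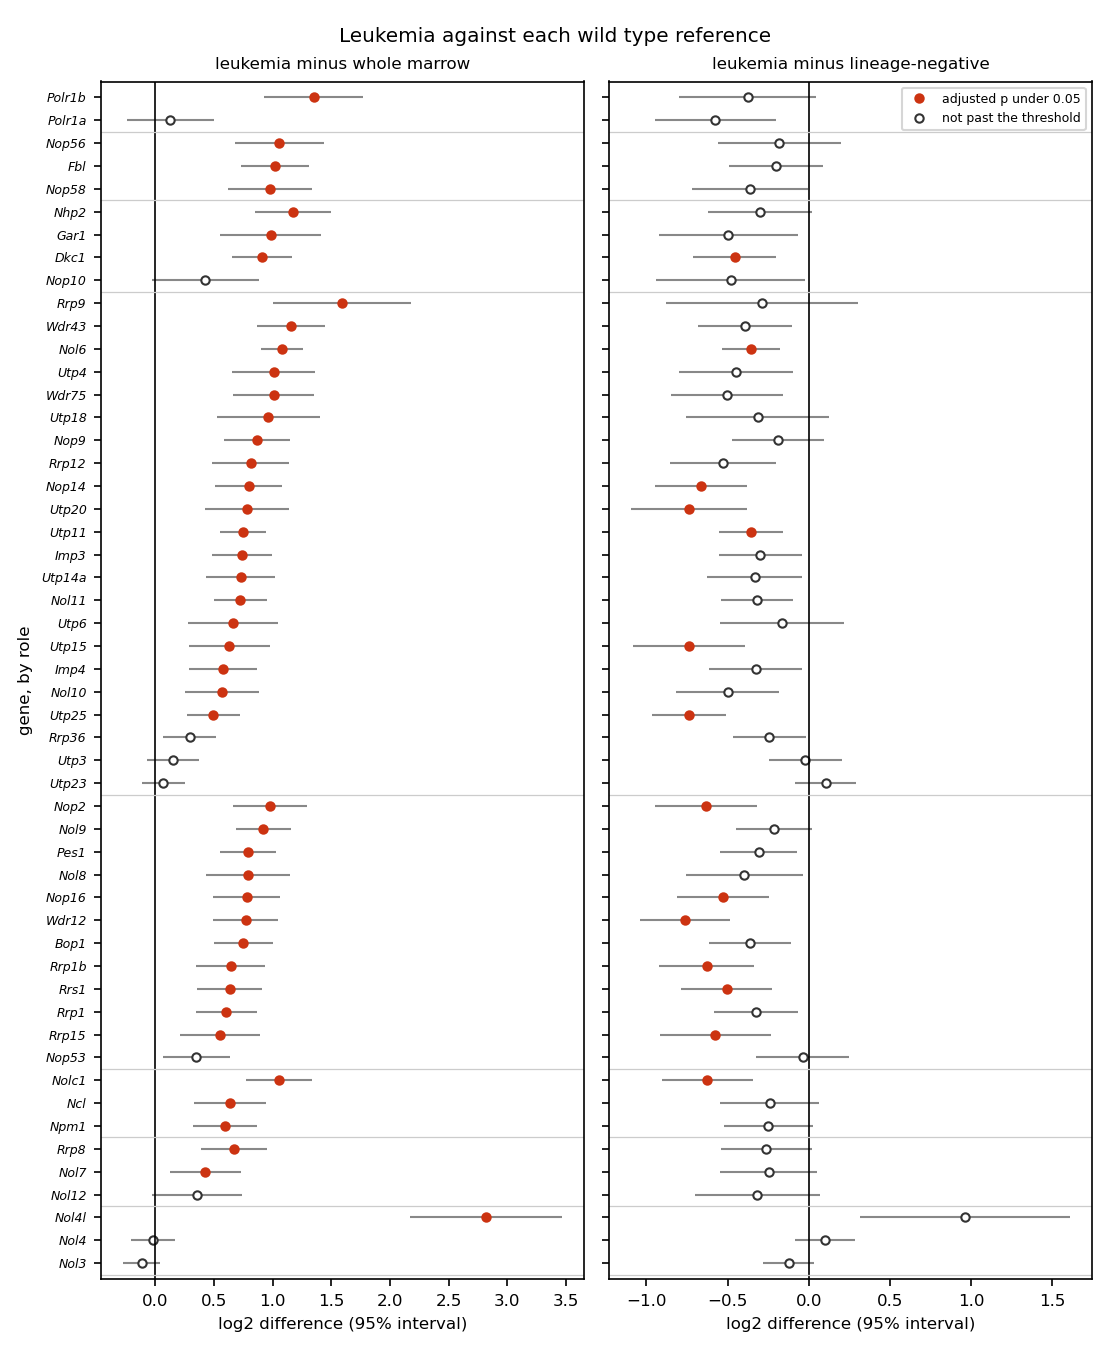
Points are log2 differences of the 52 members (rows, by role) and lines their 95% intervals, for leukemia against whole marrow (left) and against lineage-negative marrow (right). Filled points passed a limma adjusted p of 0.05: 43 on the left, all to the right of 0, and 14 on the right, all to the left of 0.

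Since the members moved together, their promoters were read for a pair of motifs. The E-box CACGTG is bound by MYC with MAX, and CCGGAAG is a form of the site bound by ETS factors, the family of ERG. RefSeq windows of 300 bases (250 before to 50 after a start, GRCm38.p6) were found for 40 of 52 members, as 49 windows, some of which overlap. Read on both strands, CACGTG was in 22.4% of them (11 windows of 9 genes) and in 7.2% of all 32851 windows. The latter belong to 27025 RefSeq genes, more than the genes measured here. CCGGAAG was in 26.5% (13 windows of 12 genes) and in 8.9% of all. TATAAA, the core of the TATA box, was in 10.2% and 13.6%. By gene, CACGTG was in 9 of 40 members and 2187 of 27025 genes, and CCGGAAG in 12 of 40 and 2683 of 27025. The member windows had a median GC content of 57.7% against 52.7%, and its part in these shares was not tested. A match describes the letters only and shows no binding.

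The 150 bases before the start are shown for 6 genes: Nop2 and Utp18 hold both motifs, Nol11 and Imp4 hold the E-box alone, and Rrp9 and Polr1b, which had large differences, hold neither in this stretch. Each is written 5′ to 3′ on the gene's strand, with CACGTG and CCGGAAG in capitals. Nop2 is at chr6:125131733-125131882 (+), Utp18 at chr11:93885767-93885916 (-), Nol11 at chr11:107189382-107189531 (-), Imp4 at chr1:34439679-34439828 (+), Rrp9 at chr9:106477159-106477308 (+) and Polr1b at chr2:129100846-129100995 (+). Counted from the start, the E-box begins at -60 in Nop2, -20 in Utp18, -43 in Nol11 and -121 in Imp4. CCGGAAG begins at -38 in Nop2 and -106 in Utp18.
Nop2: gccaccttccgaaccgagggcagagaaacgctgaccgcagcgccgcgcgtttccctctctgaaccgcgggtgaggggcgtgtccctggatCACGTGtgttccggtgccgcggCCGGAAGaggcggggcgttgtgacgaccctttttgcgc
Utp18: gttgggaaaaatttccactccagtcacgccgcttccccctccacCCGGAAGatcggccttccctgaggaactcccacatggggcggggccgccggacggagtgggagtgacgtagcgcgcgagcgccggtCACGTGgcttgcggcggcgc
Nol11: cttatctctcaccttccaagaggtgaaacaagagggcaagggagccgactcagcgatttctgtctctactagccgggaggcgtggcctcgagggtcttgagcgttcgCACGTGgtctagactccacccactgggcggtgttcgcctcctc
Imp4: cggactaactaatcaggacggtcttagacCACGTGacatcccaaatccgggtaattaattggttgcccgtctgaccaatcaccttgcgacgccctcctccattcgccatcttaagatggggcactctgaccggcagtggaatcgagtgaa
Rrp9: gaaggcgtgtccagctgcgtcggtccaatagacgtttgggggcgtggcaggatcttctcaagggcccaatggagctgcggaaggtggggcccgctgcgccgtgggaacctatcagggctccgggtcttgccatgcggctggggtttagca
Polr1b: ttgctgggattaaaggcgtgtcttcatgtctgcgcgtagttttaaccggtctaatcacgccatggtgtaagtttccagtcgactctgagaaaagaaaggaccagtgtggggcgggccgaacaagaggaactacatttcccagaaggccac

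Of the RNA polymerase I genes, Polr1b passed the threshold against whole marrow and Polr1a did not. Polr1b, which encodes the second-largest subunit of the catalytic core, read 7.30, 6.88 and 7.42 in whole marrow, 8.79, 9.21 and 8.78 in the pools and 8.73, 8.65 and 8.26 in the leukemias. The leukemias lay above every whole marrow array and overlapped no pool. Polr1b was 2.55-fold higher in leukemia than in whole marrow (1.35 ± 0.19, limma adjusted p = 0.00174) and did not differ from the pools past the threshold (-0.38, adjusted p = 0.283). Polr1a, the largest subunit, read 7.78, 7.25 and 7.47 in whole marrow, 8.12, 8.44 and 8.06 in the pools and 7.86, 7.55 and 7.48 in the leukemias. The leukemias overlapped whole marrow, and every pool was above both. Polr1a differed between leukemia and whole marrow by 0.13 ± 0.16 (95% interval -0.24 to 0.50, limma adjusted p = 0.657). Against the pools it differed by -0.58 (adjusted p = 0.0653), a value that passed without leukemia 1 (-0.69, adjusted p = 0.0486) and with 75th percentile centring (adjusted p = 0.0423), and the pools were above whole marrow by 0.70 (adjusted p = 0.00942).

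Within an array, Polr1b minus Polr1a was -0.48, -0.37 and -0.05 in whole marrow, 0.67, 0.77 and 0.72 in the pools and 0.88, 1.11 and 0.78 in the leukemias. The pair was chosen after its values were seen, and the test below cannot reach 0.05. From whole marrow to leukemia this difference changed by 1.22 (exact two-sided permutation p = 0.1, the smallest that 3 against 3 arrays allow). It changed by 1.02 from whole marrow to the pools (exact p = 0.1) and by 0.20 from the pools to the leukemias (exact p = 0.1).

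The proteins of the box C/D particle, whose snoRNA guides ribose methylation, were higher than in whole marrow in all 3 cases (14.6% of all genes). Nop56, a scaffold of the particle, read 9.34, 8.76 and 9.18 in whole marrow, 10.38, 10.44 and 10.17 in the pools and 10.40, 10.07 and 9.98 in the leukemias. Leukemia arrays overlapped the pools and lay above whole marrow. Nop56 was 2.08-fold higher in leukemia than in whole marrow (1.06 ± 0.17, limma adjusted p = 0.00289), and the difference from the pools was -0.18 (adjusted p = 0.626). Fbl, the methyltransferase fibrillarin, read 7.70, 7.31 and 7.74, then 8.88, 8.86 and 8.68, then 8.65, 8.71 and 8.47 in the same order of groups. It rose by 1.02 ± 0.13 over whole marrow (adjusted p = 0.00126), with -0.20 against the pools (adjusted p = 0.427). Nop58, the partner scaffold, read 8.27, 8.05 and 8.63, then 9.59, 9.82 and 9.56, then 9.32, 9.45 and 9.12. All its leukemia values were below all its pool values, but the difference of -0.36 missed the threshold (adjusted p = 0.216). Against whole marrow it rose by 0.98 ± 0.16 (adjusted p = 0.00302).

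Of the box H/ACA proteins, 3 of 4 rose over whole marrow (14.6% of all genes). These proteins also belong to telomerase. Nhp2 read 7.01, 7.16 and 6.92 in whole marrow, 8.28, 8.80 and 8.44 in the pools and 8.13, 8.37 and 8.13 in the leukemias. It rose by 1.17 ± 0.14 over whole marrow (limma adjusted p = 0.00111). Gar1 read 7.19, 6.73 and 7.14, then 8.47, 8.58 and 8.45, then 8.36, 8.03 and 7.62, so leukemia 3 was the lowest of its group. Its differences were 0.98 ± 0.19 from whole marrow (adjusted p = 0.0066) and -0.49 from the pools (adjusted p = 0.159). Dkc1, the pseudouridine synthase dyskerin that is mutated in dyskeratosis congenita, rose by 0.91 ± 0.11 (adjusted p = 0.0012) and was below the pools by -0.46 (adjusted p = 0.0416). That call against the pools was lost in 11 alternatives. Nop10 differed from whole marrow by 0.43 ± 0.20 (adjusted p = 0.171), and it passed without whole marrow 1 (0.66, adjusted p = 0.0239), which makes the count 4 of 4.

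Of the members that act in the small-subunit processome or in small-subunit maturation, 19 of 22 rose over whole marrow (14.6% of all genes), with a median difference of 0.744. Against the pools 6 of 22 were lower (5.73% of all genes), with a median of -0.345. That count was 1 without leukemia 3, 2 without pool 2, 3 without pool 1 and 4 without leukemia 2 or pool 3. Rrp9, which binds the U3 snoRNA, read 5.49, 5.72 and 5.74 in whole marrow, 7.06, 7.97 and 7.56 in the pools and 7.66, 7.27 and 6.80 in the leukemias. It was 3.01-fold higher in leukemia than in whole marrow (1.59 ± 0.26, limma adjusted p = 0.00328) and overlapped the pools (-0.29, adjusted p = 0.619). Wdr43, of the early module that is also linked to transcription of ribosomal DNA, read 8.13, 7.98 and 8.24, then 9.52, 9.86 and 9.63, then 9.34, 9.43 and 9.06. It rose by 1.16 ± 0.13 (adjusted p = 0.000884) and differed from the pools by -0.39 (adjusted p = 0.102).

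Other proteins of that early module also rose over whole marrow: Utp4 by 1.01, Wdr75 by 1.01, Nol11 by 0.73 and Utp15 by 0.63. Nol6, a processome protein, rose by 1.08 ± 0.08 (limma adjusted p = 0.000398). Imp3 and Imp4, which help U3 pair with the precursor, rose by 0.74 and 0.58. Utp25, Utp20 and Utp15 had the largest drops against the pools in this role, nearly equal at -0.738, -0.737 and -0.737. Utp25 read 6.80, 6.65 and 6.93 in whole marrow, 8.02, 8.15 and 7.91 in the pools and 7.33, 7.36 and 7.18 in the leukemias. The leukemias lay between the other groups with no overlap: 0.50 ± 0.10 above whole marrow (adjusted p = 0.00814) and 1.67-fold below the pools (-0.74 ± 0.10, adjusted p = 0.00448). Utp23, Utp3 and Rrp36 differed from whole marrow by 0.07, 0.15 and 0.29 and did not pass. Rrp36 passed without pool 3 (0.29, adjusted p = 0.0487) or leukemia 2 (0.36, adjusted p = 0.0428). The calls of Nol10, Utp6 and Utp15 against whole marrow were each lost when whole marrow 2 was left out (adjusted p = 0.0598, 0.0627 and 0.0559). That of Nol10 was also lost without leukemia 1 (0.0540) and that of Utp6 without whole marrow 3 (0.0596).

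**Figure D4:**
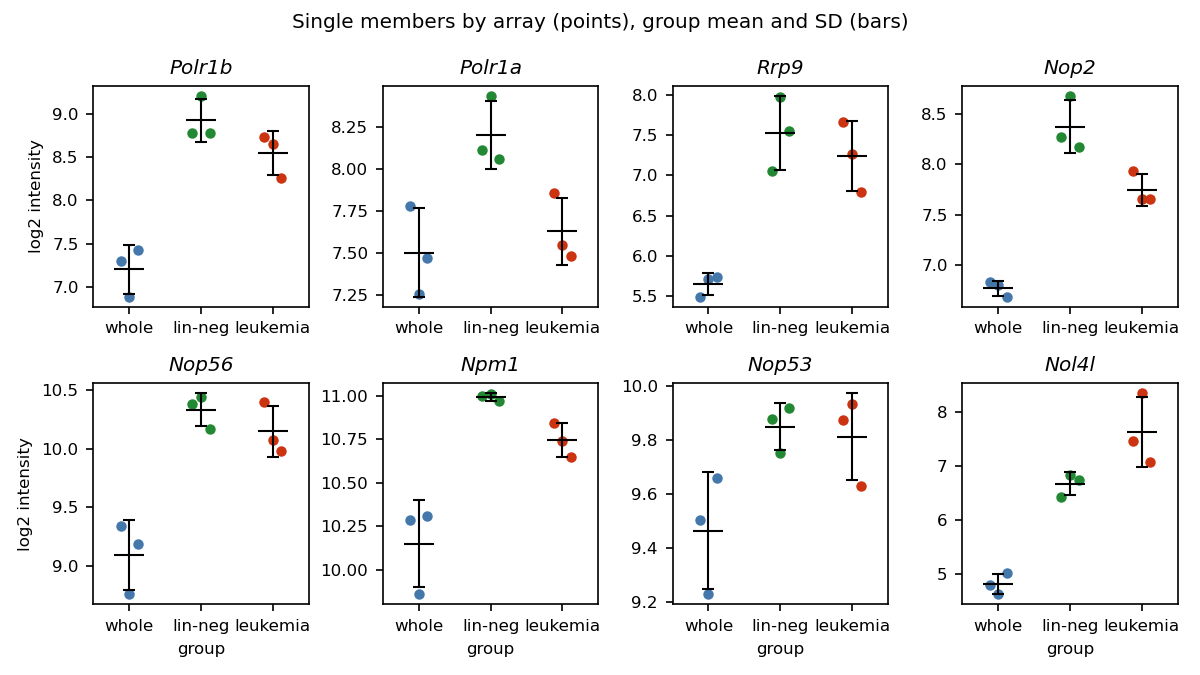
Log2 intensity of 8 members by group, with 1 point per array and the group mean and SD as bars. Each panel has its own vertical scale. Polr1a overlaps between leukemia and whole marrow, while in Polr1b, Rrp9, Nop2, Nop56, Npm1 and Nol4l the leukemias lie above all whole marrow arrays.

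Of the 12 large-subunit factors, 11 rose over whole marrow (14.6% of all genes, median 0.759) and 6 were lower than in the pools (5.73% of all genes, median -0.451). The 6 became 1 without pool 1, 2 without pool 2, leukemia 2 or leukemia 3, 3 without whole marrow 1 and 4 without whole marrow 3. Nop2, an rRNA cytosine methyltransferase, read 6.83, 6.80 and 6.68 in whole marrow, 8.27, 8.68 and 8.18 in the pools and 7.93, 7.65 and 7.65 in the leukemias. It rose by 0.98 ± 0.14 over whole marrow (limma adjusted p = 0.00193) and was below the pools by -0.63 (adjusted p = 0.0275). The call against the pools was lost in 5 alternatives, among them those without pool 1, pool 2, leukemia 2 or leukemia 3 (adjusted p = 0.0618, 0.0507, 0.0641 and 0.0896). Nol9, a polynucleotide kinase that acts on the precursor's internal spacer, read 7.71, 7.53 and 7.63, then 8.69, 8.87 and 8.71, then 8.69, 8.59 and 8.36. It rose by 0.92 ± 0.10 (adjusted p = 0.000893) and differed from the pools by -0.21 (adjusted p = 0.269). Rrp15 rose by 0.55, a call lost without whole marrow 1, whole marrow 2 or leukemia 1 (adjusted p = 0.0541, 0.0897 and 0.0805).

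Pes1, Bop1 and Wdr12 form the PeBoW complex. They rose over whole marrow by 0.79, 0.75 and 0.77, each past the threshold. Wdr12 read 6.72, 6.48 and 6.50 in whole marrow, 8.14, 8.13 and 8.01 in the pools and 7.58, 7.30 and 7.12 in the leukemias. It was 1.70-fold below the pools (-0.76 ± 0.12, limma adjusted p = 0.00837). Pes1 at -0.31 (adjusted p = 0.115) and Bop1 at -0.36 (adjusted p = 0.083) did not pass there, and the differences between the 3 genes were not tested. Nop53, which brings the RNA exosome to the large subunit, differed from whole marrow by 0.35 ± 0.13 (adjusted p = 0.078) and from the pools by -0.04 (adjusted p = 0.92). Its call against whole marrow was gained without whole marrow 3 (adjusted p = 0.0435) or leukemia 3 (0.0497). Its call in the pools against whole marrow (0.39, adjusted p = 0.0415) was lost in 8 alternatives.

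The nucleolar chaperones all rose over whole marrow (14.6% of all genes). Npm1, nucleophosmin, a chaperone whose gene is often mutated in human acute myeloid leukemia, read 10.28, 9.86 and 10.31 in whole marrow, 11.00, 11.01 and 10.97 in the pools and 10.84, 10.74 and 10.65 in the leukemias. It was 1.51-fold higher than in whole marrow (0.59 ± 0.12, limma adjusted p = 0.00846), and the difference from the pools was -0.25 (adjusted p = 0.274). Ncl, nucleolin, read 9.86, 9.45 and 9.86, then 10.60, 10.68 and 10.52, then 10.49, 10.44 and 10.15. It rose by 0.64 ± 0.13 (adjusted p = 0.00976). Nolc1, which chaperones snoRNPs, read 7.18, 7.22 and 7.38, then 8.82, 9.20 and 8.81, then 8.33, 8.45 and 8.18. Its leukemia arrays lay between the other groups, 1.06 ± 0.12 above whole marrow (adjusted p = 0.00106) and -0.63 from the pools (adjusted p = 0.0185, and 0.0629 without leukemia 3).

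Among members of other or uncertain role, Rrp8, linked to rRNA methylation and silencing of ribosomal DNA, read 7.45, 7.09 and 7.24 in whole marrow, 8.24, 8.29 and 8.04 in the pools and 8.11, 7.88 and 7.79 in the leukemias. It rose by 0.67 ± 0.12 over whole marrow (limma adjusted p = 0.00563). Nol7 read 7.21, 6.90 and 7.28, then 7.84, 7.90 and 7.68, then 7.68, 7.33 and 7.67. Its rise of 0.43 ± 0.13 had the highest adjusted p of the 43 calls (adjusted p = 0.0464) and was lost in 12 alternatives. Nol12 read 5.76, 6.16 and 5.99, then 6.49, 6.89 and 6.56, then 6.04, 6.36 and 6.58, so its leukemias overlapped both other groups. It differed from whole marrow by 0.36 (adjusted p = 0.169) and from the pools by -0.32 (adjusted p = 0.326).

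The 3 genes caught by symbol alone went separate ways. Nol4l, a known fusion partner of RUNX1 in human leukemia, read 4.80, 4.63 and 5.01 in whole marrow, 6.43, 6.83 and 6.75 in the pools and 7.47, 8.35 and 7.08 in the leukemias. The leukemia arrays were above all arrays of both other groups. The difference from whole marrow was 2.82 ± 0.28 (limma adjusted p = 0.000693), or 7.05-fold. The whole marrow mean of 28.2 lay below the array median of 33.4, where background limits the size of a change. Against the pools Nol4l differed by 0.96 ± 0.28 (adjusted p = 0.0754), a value that passed without leukemia 3 (1.24, adjusted p = 0.0358). Nol3, an inhibitor of cell death, read between 4.13 and 4.40 on every array and did not differ past the threshold (-0.12, adjusted p = 0.282). Nol4, known from brain, differed by -0.02 (adjusted p = 0.909). Without these 3, 42 of 49 members were higher than in whole marrow (14.6% of all genes).

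Arrays of a group did not move evenly. Leukemia 1 was the highest of its group in 36 of 52 members and leukemia 3 the lowest in 36, while over all genes the shares were 30.3% and 28.9%. Lineage-negative pool 2 was the highest in 47 of 52, against 43.0% of all genes. Whole marrow 2 was the lowest in 34, against 28.8% of all genes. The median log2 intensity of the members was 7.15, 6.91 and 7.03 in whole marrow, 8.14, 8.39 and 8.06 in the pools and 7.91, 7.77 and 7.66 in the leukemias.

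Other genes of the pathway were also mostly higher in leukemia than in whole marrow. Of 118 further biogenesis genes, 91 were higher in leukemia than in whole marrow and 0 lower by limma (102 and 0 at an unadjusted p under 0.05), with a median of 0.67. Over all genes, 14.6% were higher and 9.93% lower (19.3% and 15.6% unadjusted). Against the pools 19 of the 118 were lower and 0 higher (64 and 1 unadjusted), with a median of -0.328. The shares of all genes were 5.73% lower and 2.95% higher (14.3% and 8.33% unadjusted). The count of 19 was 3 without leukemia 3, 6 without pool 1 or 2 and 12 without leukemia 2. By role, the rise over whole marrow passed in 38 of 46 genes of large-subunit maturation, 26 of 33 of the small subunit, 11 of 14 of the RNA exosome, 10 of 12 of snoRNP assembly and 6 of 13 of RNA polymerase I and its initiation factors. No gene of these lists passed the threshold downward, and 2 of the 118 differences were negative.

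The helicase Ddx18 rose by 1.31 ± 0.08 (limma adjusted p = 0.000292) and Ddx21, a helicase of rRNA transcription and processing, by 1.22. Tsr1, a late small-subunit factor, rose by 1.35 ± 0.22 (adjusted p = 0.00348) and Noc4l by 1.27. The exosome subunits Exosc2 and Exosc1 rose by 1.08 and 0.97, and the polymerase subunits Polr1c and Polr1e by 1.05 and 0.96. Ruvbl1, an ATPase of snoRNP assembly, rose by 1.03 and Naf1, an H/ACA assembly factor, by 0.86.

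The ribosomal proteins themselves had smaller median differences. Of 63 genes with symbols of cytosolic ribosomal proteins, 22 were higher in leukemia than in whole marrow and 0 lower (33 and 1 at an unadjusted p under 0.05), with a median of 0.256. Over all genes the shares were 14.6% and 9.93% (19.3% and 15.6% unadjusted). The list holds Rps19bp1 and Rps23rg1, which are not ribosomal proteins. The pools exceeded whole marrow in 38 of 63 (21.7% of all genes), with a median of 0.35. Of 77 mitochondrial ribosomal proteins, 45 rose and 1 fell (Mrpl33), against 14.6% and 9.93% of all genes, with a median of 0.529. The difference between lists was not tested.

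Myc, whose protein binds the E-box, read 9.15, 9.14 and 9.15 in whole marrow, 10.83, 10.86 and 10.88 in the pools and 10.41, 10.83 and 10.44 in the leukemias. Leukemia 2 overlapped the pools and the other leukemias lay below them. Myc was higher in the leukemias than in whole marrow (1.41 ± 0.11, limma adjusted p = 0.000422), and the difference from the pools was -0.29 (adjusted p = 0.152). Max, the partner of MYC, differed from whole marrow by -0.57 ± 0.14 in the leukemias (adjusted p = 0.0173). The drop in Max was not particular to the leukemias: the pools differed from whole marrow by -0.674, also past the threshold. Between leukemias and pools, Max differed by 0.099, which did not pass. Mycn was lower in the leukemias than in the pools (-1.17, adjusted p = 0.0014), from a pool mean of 41.2 intensity units to 18.3, below the array median.

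**Figure D5:**
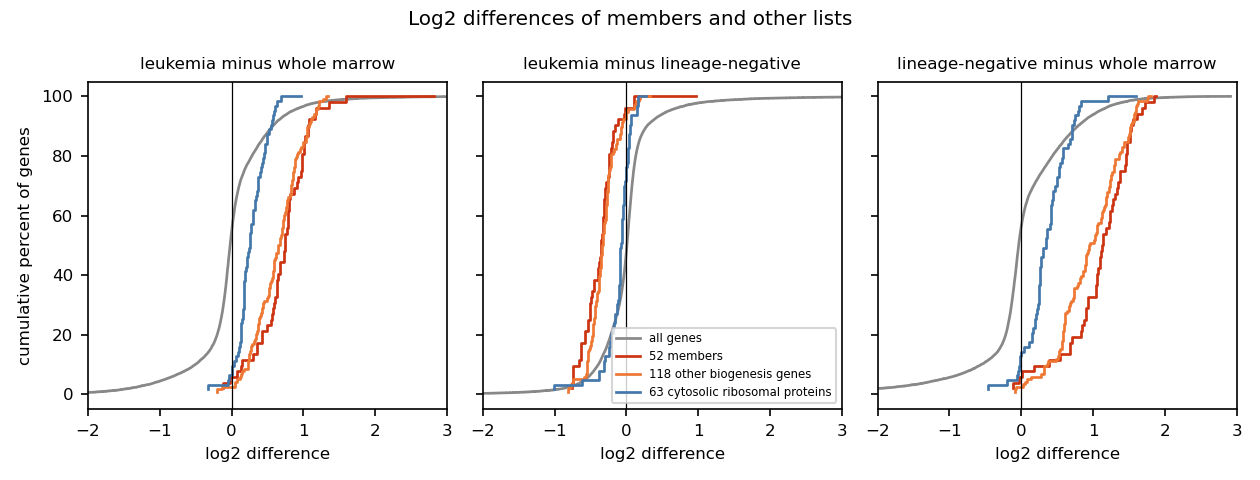
Cumulative percent of genes against log2 difference for all genes, the 52 members, 118 other biogenesis genes and 63 cytosolic ribosomal proteins, in the 3 comparisons. The horizontal axis is limited to -2 to 3. The member and other biogenesis curves lie to the right of all genes in both comparisons with whole marrow and to the left in leukemia minus lineage-negative, where the ribosomal protein curve stays near that of all genes.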

How the data were processed

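Bone marrow RNA was hybridised to Affymetrix whole-transcript arrays. The deposited intensity values are linear; the authors computed them by RMA in Partek, per the submitters' processing notes. Software versions and build: not given in the sources used here. Values were log2-transformed. Of 28853 probe sets, 21789 had 1 gene symbol, 1621 several and 5443 none. Those with 1 symbol gave 19938 genes.

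A linear model of the 9 arrays in 3 groups was fitted with limma 3.58.1 (R 4.3.3, eBayes without trend, residual df 6, prior df 2.62). Two-sided p-values received Benjamini-Hochberg adjustment across the 19938 genes, with a threshold of 0.05. No filter was set on dim genes, and 3 arrays per group limit the precision. The fit was tested on simulated data.

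Members, lists and roles were chosen with earlier results of these data known. Array values are given for the 2 members of a role with the largest difference from whole marrow, the 1 with the largest from the pools, the 3 brightest, and others where named. Alternatives were other scalings, an offset, bright genes only, the mean of a gene's probe sets, eBayes with trend, each array left out, only the compared groups, and a replicate block. Wild type replicate numbers were not used as pairs in the main fit, since the mice differ. Promoters are RefSeq windows of GRCm38.p6.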

Additional observations from a re-analysis of the deposited data

How the results depend on the processing

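The direction of the members' medians held under every alternative. Under cyclic loess the median difference was 0.582 for leukemia minus whole marrow and 0.895 for lineage-negative minus whole marrow, and 1 other biogenesis gene was lower in the latter; the cause was not tested. Members lower in leukemia than in the pools numbered 9 with trend and robust eBayes and 5 in a fit of only the 2 groups, which has fewer arrays. With bright genes only, 1 member, Nol4l, was higher than in the pools. Leaving out 1 array in turn gave 38 to 44 members higher than whole marrow, 3 to 16 lower than the pools and 0 to 1 higher, and 46 to 48 higher in the pools than in whole marrow. For the other biogenesis genes the ranges were 72 to 88, 3 to 27 lower than the pools, and 97 to 110. 19 of those were lower with all arrays, 6 without pool 1 or 2, 12 without leukemia 2 and 3 without leukemia 3. The members' medians ranged from 0.659 to 0.812, -0.407 to -0.249 and 1.076 to 1.218. Over all genes, the same runs gave 2350 to 2835 higher than whole marrow. They gave 490 to 1174 lower than the pools and 268 to 827 higher. In the pools, 3611 to 4462 genes were higher than in whole marrow.

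Reversed values were all of members that did not pass. In leukemia minus whole marrow, Nol4 was 0.008 under cyclic loess and without whole marrow 3, and 0.022 without leukemia 3 (lowest -0.056, without whole marrow 2), Polr1a was -0.055 under cyclic loess and Utp23 was -0.013 under 75th percentile centring. Against the pools, Nop53 was 0.004 under that centring and 0.053 without leukemia 3 (lowest -0.097, without leukemia 2), and Utp3 was 0.019 under it, 0.066 under cyclic loess, and 0.005, 0.016, 0.034 and 0.012 without pool 1, pool 2, leukemia 1 and leukemia 2 (lowest -0.111, without leukemia 3). In lineage-negative minus whole marrow, Nol3 was -0.117 under that centring, -0.009 without whole marrow 1 and -0.031 without pool 2 (highest 0.031, without pool 1), Utp23 was 0.035 without pool 3 (lowest -0.09, without pool 2) and Utp3 -0.003 under cyclic loess.

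A replicate block on the title numbers of the wild type groups gave 48 members higher, as without it, 108 other genes and a median of 1.136. Deviations of same-numbered arrays correlated at 0.312, -0.009 and -0.009, and those of differently numbered arrays at -0.203 to 0.147. Deviations within a group constrain each other, so these values cannot decide on pairing. The whole marrow arrays and the pools came from different mice. Slide and scan date were not used here, so no block on them was run. Members near the array median (Nol3, Nol4, and Nol4l in whole marrow) carry little signal over background. Rrp15, Rrp12, Utp23 and Rrp9 were also dim in whole marrow, with means of 37.4, 43.9, 47.3 and 50.2 against an array median of 33.4. Background can limit the size of their differences from whole marrow.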

Other observations

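Some probe sets of members were left out of the gene values. The other Fbl probe set had mean log2 intensities of 7.60 in whole marrow, 8.61 in the pools and 8.35 in the leukemias. The other Wdr12 probe set had 5.58, 7.41 and 6.54. The 3 probe sets annotated to both Npm1 and Gm15484 had 10.13, 10.79 and 10.67, then 10.50, 11.09 and 10.93, then 9.80, 10.34 and 10.25. The probe set shared by Utp14b and Acsl3 had 5.41, 6.10 and 5.52. The 4 annotated to both Nol11 and Rps12 had 10.215, 10.625 and 10.421, then 10.232, 10.698 and 10.484. Next came 10.068, 10.517 and 10.309, then 10.415, 10.884 and 10.676. In each of these 4, leukemia 1 lay within the whole marrow range. The other Nol4 probe sets had 4.123, 4.078 and 4.12, then 4.297, 4.266 and 4.228. These values cannot be assigned to 1 gene where the annotation names several, and they entered no test.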
